A study of Mus musculus with 8 samples.

Results

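Sox8, Sox9 and Sox10 encode the group E SOX proteins (SOXE). They were taken by name as a gene family, not by any measured value, though with earlier results of these data known. They make up 3 of the 21755 protein-coding genes annotated on the mouse autosomes and X. Each was read in 4 windows on mm10: the transcription start site (TSS) ±1 kb, the gene body, and 20 kb upstream and 20 kb downstream of the gene. SOX9 occupancy was profiled by CUT&Tag, in which an antibody brings a transposase to a chromatin protein so that nearby DNA can be sequenced, in wild-type (WT) C57BL/6 mouse spinal cord. One condition was uninjured and the other was 1 day after a contusion injury (1 d.p.i.), each with 1 male (M) and 1 female (F) sample of adult mice. Tissue was a 5-mm segment centred on the lesion, or the matching level of uninjured cord, and the labels give a DNA stain as the basis of the nuclei sort. For CUT&Tag the paper refers back to its general sort, which also stained nuclei for NEUN or SOX10. In the paper's sequencing of single nuclei these markers served to deplete neurons and oligodendroglia. A selection of cell types by these markers may thus have been made here too, which is not stated. From every sample, 20% of the nuclei skipped the SOX9 antibody and received the secondary antibody alone, giving 4 SOX9 libraries and 4 control libraries, 2 in each group. In the sequencing work 2 to 4 mice were pooled per condition, the labels do not divide that number between the M and F samples, and the groups share the strain, genotype and tissue.

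SOXE proteins recognise short AT-rich cores through an HMG domain, bend the DNA, and can bind as dimers to a pair of cores that face each other. In the spinal cord SOX9 sets the switch from making neurons to making glia and persists in astrocytes and ependymal cells. SOX10 carries oligodendrocyte precursors into myelinating cells, and SOX8 is expressed in glia and shares functions with both. SOXE genes are also known to be regulated by SOXE proteins, so SOX9 signal was read at the family's own 3 loci and compared after injury. Whether that signal exceeds background could not be settled with the controls at hand, as set out below. In bulk nuclei a change in the number of cells of a type and a change in signal per cell cannot be told apart.

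The uninjured M and F SOX9 libraries held 1891276 and 7216730 fragments, and the 1 d.p.i. M and F SOX9 libraries held 2529356 and 2385009. The control libraries were far shallower, with 22752 and 46846 fragments in uninjured M and F and 52950 and 10906 in 1 d.p.i. M and F. Uninjured F was thus the deepest SOX9 library by a wide margin, and depth cannot be told apart from sex and condition in it. Chromosome Y took 1.11% and 0.630% of coverage in the uninjured and 1 d.p.i. male SOX9 libraries, against 0.0983% and 0.142% in the female ones, higher in males in both conditions. In the shallow controls it took 0.202% in uninjured M and 0.218% in uninjured F, which is not the order of the sex labels, and 0.267% in 1 d.p.i. M and 0.129% in 1 d.p.i. F. Of the control fragments that overlapped no other fragment of their library, 93.6% and 82.4% in uninjured M and F, and 86.2% and 91.4% in 1 d.p.i. M and F, had both ends at positions that also end fragments of 1 SOX9 library. After a shift of 50 bp the highest of these shares was 0.226%. Most control fragments thus had the ends of fragments in a SOX9 library. With that limit, the controls are given for each member with 20 kb on each side, and for start sites.

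At its start site (chromosome 17, 25570686, minus strand), Sox8 had a coverage of 21.1 and 24.6 times the library mean in uninjured M and F, and 18.7 and 12.6 in 1 d.p.i. M and F. These values rest on 30, 144, 38 and 30 fragments, in the same order, and the 95% Poisson interval for the 30 fragments runs from 20.2 to 42.8. All 4 libraries were far above the median of the coding genes tested, which was 3.81, 6.71, 5.10 and 4.40 in the same order, and the uninjured pair lay above the 1 d.p.i. pair. The groups also failed to overlap, in either direction, at the start sites of 22.9% of the 18131 coding genes tested. The mean of 19.2 ± 5.04 (SD, n = 4) put Sox8 at percentile 94.2 of the coding genes.

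Sox10, which governs the oligodendrocyte lineage, had 29.6 and 32.9 times the library mean at its start site (chromosome 15, 79165240, minus strand) in uninjured M and F, and 24.2 and 12.5 in 1 d.p.i. M and F. Fragments numbered 40, 175, 53 and 29. As at Sox8, 1 d.p.i. F was the lowest library and the groups did not overlap. The mean was 24.8 ± 8.96 (SD, n = 4), at percentile 96.9 of the coding genes.

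Sox9, which encodes the protein profiled, had only 4.29 and 3.64 times the library mean at its start site (chromosome 11, 112782224, plus strand) in uninjured M and F, and 9.19 and 4.48 in 1 d.p.i. M and F. Only 7, 23, 18 and 7 fragments lay there, and the 95% Poisson interval for 7 runs from 2.81 to 14.4. Over the median of the coding genes tested, 1 d.p.i. M was high at 1.80 times and uninjured F low at 0.543 times, while uninjured M and 1 d.p.i. F were near it at 1.13 and 1.02 times. The lower of the 1 d.p.i. values was only slightly above the higher uninjured one. With a mean of 5.40 ± 2.55 (SD, n = 4) Sox9 sat at percentile 60.0 of all coding genes, tested or not, whose median of the mean level was 3.80. That median, below those of the tested genes in each library, is the coding median given from here on for means.

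**Figure D1:**
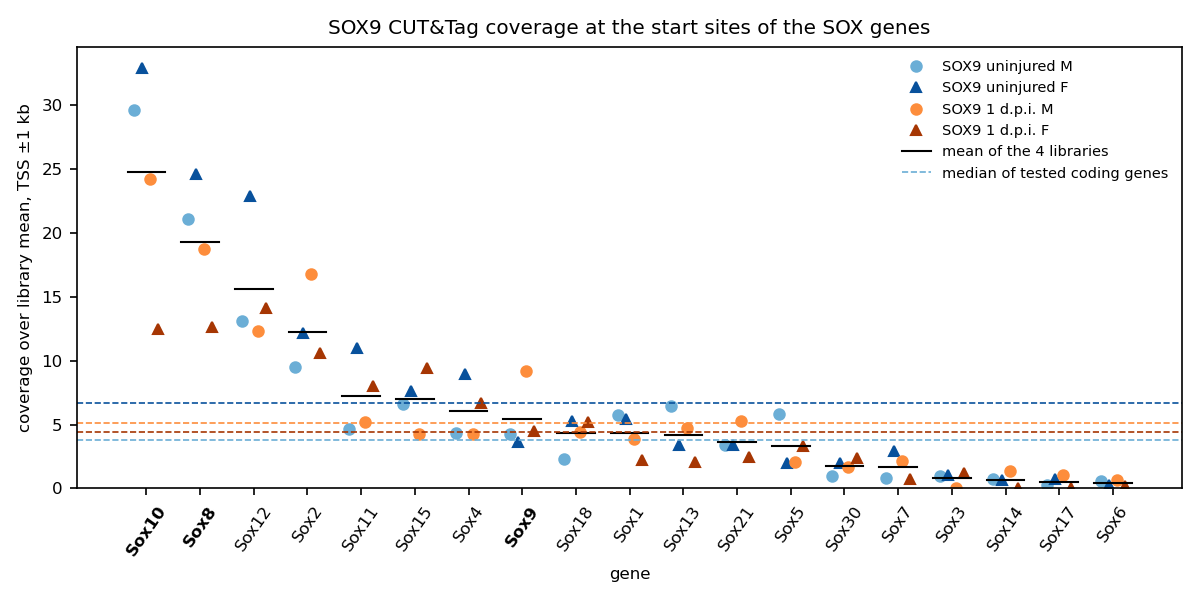
Coverage over the library mean at TSS ±1 kb (y axis) for the 19 SOX genes (x axis, SOXE in bold), with a point for each of the 4 SOX9 libraries, a bar for their mean and dashed lines for the median of tested coding genes in each library. Sox10 (mean 24.8) and Sox8 (mean 19.2) are the highest, and Sox9 (mean 5.40) lies among the other SOX genes.

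The order between the members was tested within libraries on the log2 scale, as the mean difference of 2 genes over the 4 SOX9 libraries, with a 2-sided exact permutation test of signs over 12 pairs of gene and window. With 4 libraries the smallest p this test can give is 0.125, which is 0.150 after Benjamini-Hochberg adjustment over the 12 pairs, so none could pass 0.05. At start sites Sox8 exceeded Sox9 by 1.79 ± 0.73 (SD, n = 4) in 4 of 4 libraries (exact p 0.125, adjusted 0.150). Sox10 exceeded Sox8 by 0.31 ± 0.22 (SD, n = 4) in 3 of 4 libraries (exact p 0.250, adjusted 0.250). The gap between Sox9 and the other members is more than double its spread between libraries, and the gap between Sox10 and Sox8 is close to its spread, with no fixed order between them at start sites.

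Among the 19 SOX genes at start sites, Sox8 ranked 2 in every SOX9 library. Sox10 ranked 1 in 3 of them and 3 in 1 d.p.i. F. Sox9 ranked 11, 10, 5 and 9 in uninjured M and F and 1 d.p.i. M and F.

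The gene bodies showed the same split. Sox8 had 10.3 and 12.2 times the library mean over its 4795 bp in uninjured M and F, and 10.0 and 10.7 in 1 d.p.i. M and F. Sox10 had 12.8 and 16.9 over its 10333 bp in uninjured M and F, and 12.1 and 10.1 in 1 d.p.i. M and F. Sox9 had 0.688 and 1.36 over its 5537 bp in uninjured M and F, and 2.06 and 0.954 in 1 d.p.i. M and F. Means of 10.8 ± 0.998, 13.0 ± 2.86 and 1.27 ± 0.596 (SD, n = 4) placed Sox8 at percentile 97.9, Sox10 at 98.7 and Sox9 at 43.7 of the coding genes. The condition groups overlapped for Sox8 and Sox9 and did not for Sox10, nor for 29.8% of the 17719 coding genes tested in this window.

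The signal at Sox8 and Sox10 did not end with the gene. In the 20 kb upstream, Sox8 had 9.05 and 12 times the library mean in uninjured M and F, and 10.3 and 7.22 in 1 d.p.i. M and F, with a mean of 9.66 at percentile 99.0. Upstream of Sox10 the values were 7.90 and 9.75 in uninjured M and F, and 9.57 and 7.22 in 1 d.p.i. M and F, with a mean of 8.61 at percentile 98.4. For both genes the conditions overlapped, and Sox10 minus Sox8 was −0.15 ± 0.12 (log2, SD, n = 4), with Sox10 the higher in 0 of 4 libraries (exact p 0.125, adjusted 0.150). Upstream of Sox9 the values were 1.13 and 0.818 in uninjured M and F, and 1.75 and 1.18 in 1 d.p.i. M and F, with a mean of 1.22 at percentile 47.2. There the coding median was 1.31, and the conditions did not overlap, as for 28.7% of the 17212 genes tested.

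In the 20 kb downstream, Sox8 had 6.44 and 7.76 times the library mean in uninjured M and F, and 6.78 and 6.24 in 1 d.p.i. M and F. Downstream of Sox10 the values were 7.13 and 11.9 in uninjured M and F, and 7.75 and 7.29 in 1 d.p.i. M and F. Sox9 had 0.832 and 0.802 in uninjured M and F, and 0.752 and 0.630 in 1 d.p.i. M and F. Their means of 6.80, 8.53 and 0.754 lay at percentiles 95.8, 97.9 and 32.2, with a coding median of 1.32, and the flank after Sox9 was below the library mean in all 4 libraries. The conditions overlapped for Sox8 and Sox10. For Sox9 they did not, with the 1 d.p.i. libraries the lower, as opposed to its start site and upstream flank, and 28.5% of the 17082 genes tested did not overlap either. Sox10 was above Sox8 in 4 of 4 libraries, by 0.28 ± 0.21 (log2, SD, n = 4; exact p 0.125, adjusted 0.150).

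**Figure D2:**
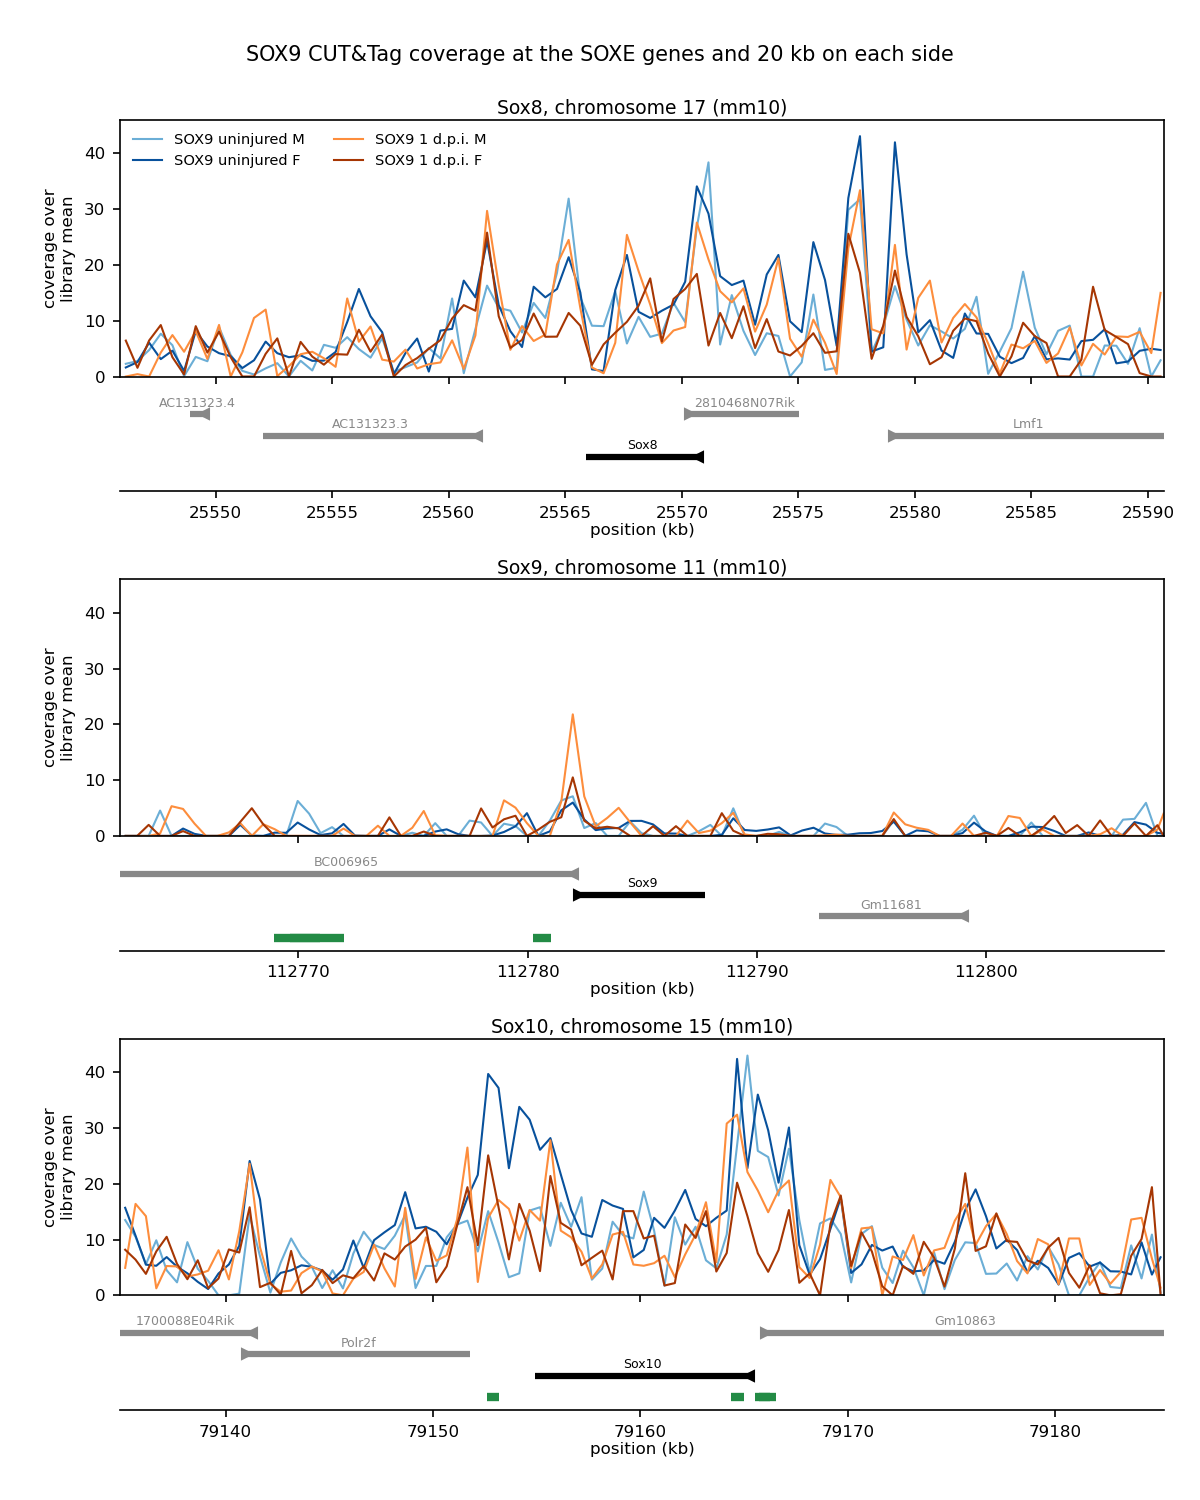
Coverage over the library mean (y axis) in 500-bp tiles along each gene and 20 kb on each side (x axis, position in kb), with a line for each of the 4 SOX9 libraries, genes as bars with an arrow at the start site, and enhancers annotated by RefSeq in green. The mean of the 4 libraries reached 5 times the library mean in 61 of 90 tiles at Sox8, 2 of 92 at Sox9 and 75 of 101 at Sox10, and every library did so in 32, 1 and 37 of them.

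Tiles of 500 bp show how this coverage is spread. The mean of the 4 SOX9 libraries was at least 5 times the library mean in 67.8% of the 90 tiles at Sox8 and in 74.3% of the 101 tiles at Sox10. At Sox9 it was so in 2.17% of the 92 tiles, both of them in the kilobase before the start site. Sox8 and Sox10 thus lay in broad regions of raised coverage with peaks inside them, whereas Sox9 had a single narrow rise.

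That rise was in the tile chr11:112781724-112782223, immediately before the Sox9 start site and over the first exon of BC006965, a noncoding gene that starts 248 bp away on the other strand. It had 7.11 and 5.98 times the library mean in uninjured M and F, and 21.8 and 10.5 in 1 d.p.i. M and F. The kilobase before the start site averaged 8.24 ± 3.90 and the kilobase after it 2.57 ± 1.22 (SD, n = 4), and the upstream side was the higher in each of the 4 libraries. Start site windows of the 2 genes overlap, so their signals cannot be told apart. Inside Sox9, exon 1 had 3.06 ± 1.16 times the mean and exon 3, the longest, 0.584 ± 0.262 (SD, n = 4).

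At Sox10 the tile with the highest mean was chr15:79164408-79164907, within the gene just after the annotated start, with 26.9 and 42.4 times the library mean in uninjured M and F and 32.4 and 20.2 in 1 d.p.i. M and F. It covers most of intron 1, whose level was 31.1 ± 9.07 (SD, n = 4), and reaches exon 2. RefSeq starts Sox10 at 79164490, inside this tile, and 3 other GENCODE start sites lie downstream of the first, as far as 79164474. The level was 8.21 ± 4.72 in exon 3 and 16.9 ± 5.24 in exon 5 (SD, n = 4), the last exon.

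At Sox8 the tile with the highest mean was not at the gene. It was chr17:25577392-25577891, between genes, with its centre 6955 bp upstream of the start site, and had 31.8 and 43.1 times the library mean in uninjured M and F and 33.4 and 18.6 in 1 d.p.i. M and F. By comparison, the tile over the start site itself had a mean of 26.7. Further peaks lay at chr17:25578892-25579391, over an exon at the start of Lmf1 (mean 25.2), and at chr17:25561392-25561891, beyond the gene's end (mean 24.0), next to the start of the noncoding gene AC131323.3.

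Neighbouring genes share these windows, and those whose start site lies within a member or its 20-kb flanks were read. The noncoding antisense gene 2810468N07Rik starts 328 bp inside Sox8 and had a start site level of 18.7 ± 4.66 (SD, n = 4). Lmf1, a lipase maturation factor, starts 8491 bp from Sox8 at 13.2 ± 3.94, AC131323.3 had 14.1 ± 3.24, and the pseudogene AC131323.4 had 5.03 ± 0.928. Beside Sox10, the noncoding gene Gm10863 starts 826 bp away on the other strand at 20.1 ± 9.02, Polr2f, an RNA polymerase subunit, had 9.69 ± 3.72, and 1700088E04Rik had 9.31 ± 3.61. At Sox9, BC006965 had 5.55 ± 2.27 and Gm11681 had 0.702 ± 0.456. Each of these at Sox8 and Sox10 was above the coding median of 3.80, and which gene a shared peak acts on was not tested.

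RefSeq enhancers, promoters and sites bound by SOX9 or SOX10 were searched for within each gene and its 20-kb flanks. Elements of these kinds are annotated near Sox10 and Sox9, and none near Sox8. They were looked at after the coverage had been seen. The D6 enhancer of Sox10 (chr15:79152604-79153185, 12055 bp from the start site and beyond the end of the gene) had 14.4 and 50.0 times the library mean in uninjured M and F, and 17.3 and 21.8 in 1 d.p.i. M and F. Parts of D6 are annotated as bound by SOX9 and SOX10, and its mean was 25.9 ± 16.4 (SD, n = 4). It overlaps the highest Sox10 tile outside the start site window, and uninjured F was more than double any other library there, while the other 3 were still above 14 times the mean.

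The MCS1C enhancer, within intron 1 and exon 2 of Sox10, had 29.6 and 38.9 times the library mean in uninjured M and F, and 33.9 and 19.3 in 1 d.p.i. M and F. U5, an enhancer upstream of the start site, had 21.2 and 30.5 in uninjured M and F, and 15.3 and 6.09 in 1 d.p.i. M and F. A part of U5 annotated as bound by SOX9 and SOX10 had 27.8 and 42.6 in uninjured M and F. That part had 20.4 and 5.96 in 1 d.p.i. M and F. MCS2, which overlaps U5, had 25.1 and 37.5 in uninjured M and F, and 18.8 and 7.72 in 1 d.p.i. M and F. At each of these 3 elements 1 d.p.i. F was the lowest library and uninjured F the highest. No test was made on single elements.

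The Sox9 elements were low. TES, an enhancer that SOX9 itself is known to act on in the developing testis, had 2.03 and 0.980 times the library mean in uninjured M and F, and 0.0722 and 0 in 1 d.p.i. M and F, on 12 fragments over the 4 libraries. Its core, TESCO, had 4.16 and 1.53 times the library mean in uninjured M and F and was listed at 0 in both 1 d.p.i. libraries, on 6 fragments in all. A VISTA enhancer 1185 bp from the start site had a mean of 0.635 ± 1.13 on 2 fragments. These values rest on few fragments, and no test was made. The annotated proximal promoter had 3.67 and 5.47 in uninjured M and F, and 12.4 and 6.31 in 1 d.p.i. M and F, in a window that spans the start site and takes in the end of the narrow rise before it.

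The peak upstream of Sox8 was read as sequence because its mean over the 4 libraries was the highest of all tiles at the 3 loci, though not in every library, and because it lies outside any annotated gene. The 200 bases centred on its highest base (chr17:25577365-25577564, plus strand, GRCm38) had 46.6 and 64.0 times the library mean in uninjured M and F, and 56.5 and 31.2 in 1 d.p.i. M and F. Forms of the SOX core searched were ACAATG and ACAAAG, on both strands, and capitals mark each match and its reverse complement.
Sox8 upstream peak: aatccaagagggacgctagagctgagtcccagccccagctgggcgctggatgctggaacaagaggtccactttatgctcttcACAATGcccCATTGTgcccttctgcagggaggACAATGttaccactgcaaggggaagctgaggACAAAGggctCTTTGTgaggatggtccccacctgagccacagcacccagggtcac

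This stretch holds 5 cores, 3 of ACAATG and 2 of ACAAAG, and 4 of them form 2 inverted pairs. The pairs are ACAATGcccCATTGT, with 3 bases between the cores, and ACAAAGggctCTTTGT, with 4. Of 21728 stretches of 200 bases taken 10 kb upstream of coding start sites, 11.2% held ACAATG and 17.2% held ACAAAG. A pair of cores of either form, facing each other across 3 to 5 bases, was in 3 of those stretches (0.0138%), and 3 (0.0138%) held at least 5 cores. Across the 3 loci, 1 of the 90 Sox8 tiles held such a pair, which was this tile, and 0 of the 92 Sox9 tiles and 0 of the 101 Sox10 tiles did. The peak was chosen for its coverage and the pairs were seen afterwards, so the shares describe the letters and test nothing about binding.

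The table of RefSeq promoter sequences at hand matched 1 of the 3 members, Sox8, and lacks Sox9 and Sox10. The 250 bases before the Sox8 start site (chr17:25570687-25570936, minus strand, GRCm38) had 40.9 and 49.1 times the library mean in uninjured M and F, and 47.3 and 18.5 in 1 d.p.i. M and F, and are shown for the contrast with the upstream peak. They hold 0 matches to either form of the SOX core, to the AP-1 motif TGAGTCA or to the NFI motif, which is TGGC and GCCA with 5 bases of any kind between them, so no base is in capitals. Among 32851 promoters of this length, 10.7% hold ACAATG and 16.5% the other form of the core. The AP-1 motif is in 4.46% of them and the NFI motif in 0.703%.
Sox8 promoter: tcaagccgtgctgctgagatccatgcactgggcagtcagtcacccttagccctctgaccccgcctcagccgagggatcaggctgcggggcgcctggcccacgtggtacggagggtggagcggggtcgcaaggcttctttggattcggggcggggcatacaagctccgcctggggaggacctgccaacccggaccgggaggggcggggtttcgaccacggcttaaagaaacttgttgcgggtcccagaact

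The Sox8 promoter thus combines high coverage with none of these motifs, and the upstream peak combines high coverage with 5 cores.

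The part of the Sox10 D6 enhancer that RefSeq annotates as bound by SOX9 and SOX10 (chr15:79152766-79152994, plus strand, GRCm38) is shown because it is the annotated SOX-bound element with the most coverage outside the start site window. It had 13.8 and 56.2 times the library mean in uninjured M and F, and 15.0 and 26.3 in 1 d.p.i. M and F. Its 229 bases hold 2 matches to ACAAAG, both read as CTTTGT on the plus strand and marked in capitals, and 0 to the other 3 motifs. The share of promoters of this length with ACAAAG is 15.1%.
Sox10 D6 part: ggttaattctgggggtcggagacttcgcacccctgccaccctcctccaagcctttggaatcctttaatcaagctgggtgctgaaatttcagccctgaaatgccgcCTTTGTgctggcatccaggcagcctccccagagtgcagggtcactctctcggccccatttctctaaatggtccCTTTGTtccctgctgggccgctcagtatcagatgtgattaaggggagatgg

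The start site windows of the 3 genes are all GC-rich, with 64.1% GC at Sox8, 61.8% at Sox9 and 59.5% at Sox10 against a coding median of 51.5%. They differ in CpG content. The observed count over that given by base composition was 0.598 at Sox8, 0.756 at Sox9 and 0.305 at Sox10, and the coding median was 0.485. The member with the lowest coverage thus had the most CpG and the one with the highest coverage the least, and what part base composition has in the coverage was not tested.

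Against the secondary-only controls, Sox8 with 20 kb on each side held 0.0133% and 0.0167% of the fragments on the autosomes and X in the uninjured M and F SOX9 libraries, and 0.0150% and 0.0125% in 1 d.p.i. M and F. Control libraries had 4, 10, 15 and 2 fragments there, in the order uninjured M and F and 1 d.p.i. M and F. Their shares of 0.0176%, 0.0214%, 0.0285% and 0.0184% were each higher than that of the matching SOX9 library. Only in 1 d.p.i. M did the 95% Wilson interval of the control (0.0173% to 0.0470%) lie wholly above the share of the matching SOX9 library, and the other 3 intervals held it. At the Sox8 start site the M controls had 91.7 (uninjured) and 86.5 (1 d.p.i.) times the library mean, and both F controls had 0. Those M values rest on 1 and 3 fragments.

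At Sox10 the SOX9 shares were 0.0157% and 0.0223% in uninjured M and F, and 0.0175% and 0.0144% in 1 d.p.i. M and F. The controls had 3, 7, 7 and 0 fragments, or 0.0132%, 0.0150%, 0.0133% and 0%, where the 0 of 10892 fragments allows up to 0.0275%. The Wilson intervals of the 3 controls with fragments all hold the share of their own SOX9 library. At the Sox10 start site the M controls had 43.4 (uninjured) and 74.7 (1 d.p.i.) times the library mean, and both F controls had 0. Those M values rest on 1 and 3 fragments.

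At Sox9 none of the 132920 control fragments on the autosomes and X lay in the locus, which allows a share of up to 0.00226% over the 4 controls. The SOX9 libraries had 0.00182%, 0.00144%, 0.00219% and 0.00147%, all under that limit, so a difference from the controls was not detectable at this depth. Of the 48 control fragments at the 3 loci, 41 (85.4%) had both ends in use in 1 SOX9 library. A background free of such fragments could not be measured from these files.

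The change at 1 d.p.i. was tested with limma over all coding genes with a mean of at least 0.5 times the library mean, and all 3 members passed that filter in each of the 4 windows. At start sites 0 of the 3 members passed an adjusted p of 0.05, against 2 of the 18131 genes tested (0.0110%), with 330 genes at an unadjusted p under 0.05. The log2 difference of 1 d.p.i. from uninjured was −0.55 ± 0.70 (SE) for Sox8, with −0.17 in M and −0.93 in F. It was −0.82 ± 0.72 for Sox10, with −0.28 in M and −1.36 in F. It was 0.64 ± 0.66 for Sox9, with 1.02 in M and 0.27 in F. Each difference was about the size of its standard error or less, and the limma adjusted p was 1.00 for each. Over all genes tested the median was −0.07, with 0.41 in M and −0.54 in F, and the M change was the higher for 77.7% of the genes, as it was for the 3 members.

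The groups of 2 did not overlap at the start sites of 3 of 3 members, nor at those of 4153 of the 18131 genes tested (22.9%), and limma called 0.0110% of these genes. With 2 libraries against 2, an exact permutation test of a single gene cannot go below a p of 0.333. The directions at start sites were the same for all 3 members under both other scalings tried, and leaving out each library in turn gave −0.83 to −0.28 for Sox8, −1.29 to −0.36 for Sox10 and 0.16 to 1.12 for Sox9. The width of these ranges shows how much a single library moves them, and the median over all genes moved as well, to −0.46 without uninjured M and to 0.29 without uninjured F.

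Over gene bodies limma called 0 of the 3 members and 0 of 17719 genes (0%), with 716 genes at an unadjusted p under 0.05. The number of genes called was 7 with trimmed-mean scaling, 4 with all 8 libraries and 293 with M and F as a replicate block. No member was among them. The differences were −0.11 ± 0.38 for Sox8, −0.39 ± 0.41 for Sox10 and 0.37 ± 0.35 for Sox9 (log2, SE). Upstream, 0 of the 3 members were called and 4 of 17212 genes were (0.0232%), with 586 at an unadjusted p under 0.05. The differences were −0.26 ± 0.45 for Sox8, −0.07 ± 0.43 for Sox10 and 0.41 ± 0.26 for Sox9. Downstream, 0 of the 3 members and 1 of 17082 genes were called (0.00585%), with 604 at an unadjusted p under 0.05. The differences there were −0.11 ± 0.39 for Sox8, −0.28 ± 0.42 for Sox10 and −0.15 ± 0.30 for Sox9. In these 3 windows every adjusted p of a member was 1.00, so no change at a SOXE gene passed the test, and the standard errors leave room for changes of either sign in most windows. With the SOX9 libraries thinned to the smallest depth the difference became 0.11 at the Sox8 body, −0.25 at the Sox10 body, 0.22 upstream of Sox9, −0.35 downstream of Sox8 and −0.46 downstream of Sox9. Leaving out a single library turned the sign at the Sox8 and Sox9 bodies, upstream of Sox10 and downstream of Sox8 and Sox10.

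The few genes called were named after their values were seen. They were Gm11361 and Ftl1-ps1 at start sites, Bcl3, Calcb, Apod and Psg16 upstream and Sgk1 downstream, and each was higher at 1 d.p.i. The largest change, at Gm11361, was 3.58 ± 0.71 (log2, SE; limma adjusted p 0.00928), from 0 and 0.895 times the library mean in uninjured M and F to 5.70 and 15.6 in 1 d.p.i. M and F. Leaving out single libraries moved these counts, given here in the order start sites, upstream and downstream. The start site count fell with each library left out, and both flank counts rose without uninjured F. Without 1 d.p.i. F all 3 were 0 (191, 254 and 316 genes at an unadjusted p under 0.05), and without 1 d.p.i. M they were 0, 3 and 1. With trimmed-mean scaling all 3 counts were 0 (194, 294 and 358 genes at an unadjusted p under 0.05), and so they were with all 8 libraries in the fit (1232, 384 and 368). With M and F as a replicate block they were 1, 0 and 0.

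Among the other 16 SOX genes, 15 passed the filter and 0 were called by limma. Their median start site level was 3.90 times the library mean, with 8 above the coding median of 3.80, against all 3 SOXE members above it. Sox12, an SOXC gene, was the highest at 15.6 ± 4.91 and Sox6, an SOXD gene that partners SOX9 in cartilage, the lowest at 0.443 ± 0.222 (SD, n = 4). Sox3, Sox14 and Sox17 were each listed at 0 in a library.

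Genes of the oligodendrocyte lineage known as SOX10 targets or partners had a median of 11.1, with 11 of 14 above the coding median. The highest was Mbp, a myelin protein, at 37.2 ± 13.9 and the lowest Pdgfra, a precursor receptor, at 0.816 ± 0.779 (SD, n = 4). Genes known as SOX9 targets or partners had a median of 3.63, with 7 of 14 above the coding median, from Col11a2, a cartilage collagen, at 16.8 ± 6.97 down to Sox6. All 14 of the former and 13 of the latter were tested and 0 of either were called. Sox8 and Sox10 thus stood among the higher levels of the oligodendrocyte list, and Sox9, at 5.40, was above the median of the list of its targets or partners.

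Marker genes of cell types were read the same way, as coverage at start sites, which is not expression. The median level was 16.3 for 6 oligodendrocyte markers, 9.27 for 4 oligodendrocyte precursor markers, 5.72 for 6 neuron markers and 3.73 for 8 astrocyte markers. It was 2.62 for 5 ependymal markers, 1.88 for 7 microglia and macrophage markers and 1.79 for 4 endothelial markers. Summed levels of the oligodendrocyte markers, highest at Mbp, ran from 84.0 in uninjured M to 144 in uninjured F, with both 1 d.p.i. libraries between them and 135 in 1 d.p.i. M. Those of the astrocyte markers, highest at Aldoc, were 52.5 and 53.1 in uninjured M and F, and 64.5 and 47.1 in 1 d.p.i. M and F. Each of Pdgfra, Gja1 and Tek was listed at 0 in 1 library. The highest level was thus at markers of the lineage in which Sox10 acts, and not at astrocyte markers, in libraries made with an antibody to SOX9. The part of cell types in the levels of Sox8 and Sox10 was not tested.

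The coding genes with start site levels most like each member, by Euclidean distance in log2 over the 4 SOX9 libraries and 21752 other genes, were Rnd2 (0.16) and Rab10 (0.17) for Sox8. They were Ywhag (0.35) and Ogg1 (0.39) for Sox10, and Sh2d6 (0.21) and Traf6 (0.24) for Sox9. Sox10, whose level was the most extreme, had the most distant nearest genes.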

How the data were processed

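SOX9 CUT&Tag and secondary-only libraries of uninjured and 1 d.p.i. mouse spinal cord were grouped by their labels. Per the submitters' processing notes, the authors mapped reads to mm10 with Bowtie2 2.5.4, removed duplicates with Picard 3.4.0 and called peaks with SEACR 1.3. The deposited signal is whole-number coverage of each library, not scaled for depth, and the step that wrote it is not stated. Fragments were counted as rises of coverage and rebuilt in order. Mean coverage of each window was divided by the library mean over the autosomes and X. Genes and start sites (principal transcript) are from GENCODE, and elements and promoters from RefSeq on GRCm38.

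Changes were tested with limma 3.58.1 (mean-variance trend, R 4.3.3) on log2(level + 0.5) in the 4 SOX9 libraries, over coding genes with a mean level of at least 0.5, with Benjamini-Hochberg adjustment. Other steps used Python 3.11.15, numpy 2.4.6, pandas 2.3.3, scipy 1.17.1 and matplotlib 3.10.9. The fit was checked on simulated data. Wilson and Poisson intervals, at the 95% level, and limits for a count of 0 (3 counts) cover counting error only. Alternatives covered scaling, pseudocount, filter, samples in the fit, replicate block, depth, variance trend, start site, window and each library left out.

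Named genes were the 3 members, the 2 genes nearest each in start site level, the highest and lowest of each of 3 lists (other SOX genes, oligodendrocyte lineage genes, SOX9 targets or partners), genes of the lists past the threshold, and neighbours with a start site in a member or within 20 kb. Markers covered 7 cell types. Called genes outside the lists, single markers and genes listed at 0 were named after their values were seen. The members and lists were chosen with earlier results of these data known. Chromosome Y was used only to check sex labels.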

Additional observations from a re-analysis of the deposited data

Results flagged for a closer look

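In 5 cases a member's coverage at 1 d.p.i. differed from uninjured in opposite directions in male and female libraries, with 1 library of each sex in each condition. None of these 5 gaps between male and female changes was tested. At the Sox9 gene body the log2 change was 1.1 in males and −0.36 in females, a difference of 1.46. Upstream of Sox8 it was 0.18 in males and −0.70 in females, which differ by 0.88. Upstream of Sox10 it was 0.26 in males and −0.41 in females, a gap of 0.67. Downstream of Sox8 it was 0.07 in males and −0.29 in females, 0.36 apart, and downstream of Sox10 it was 0.11 in males and −0.68 in females, 0.79 apart. The male change was the higher in these 5 and in all 12 pairs of member and window. It was also the higher for most coding genes tested, for 77.7% at start sites, 65.9% in gene bodies, 64.6% upstream and 62.3% downstream. The median change over all genes tested was 0.41 in males and −0.54 in females at start sites, 0.08 and −0.14 in gene bodies, 0.09 and −0.16 upstream, and 0.07 and −0.13 downstream. The deepest library, uninjured F, enters every female change, and the part of depth was not tested.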

How the results depend on the processing

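With all 4 SOX9 libraries, 116 of 117 alternative values of the members' changes kept their direction and none of the 165 alternatives passed an adjusted p of 0.05 in limma (lowest 0.419, downstream of Sox10 without uninjured M). The exception was the Sox8 gene body, at 0.11 with libraries thinned to the smallest depth, and the cause was not tested. Directions could not change with no filter, all 8 libraries in the fit, a replicate block or no variance trend. These settings leave a member's estimate as it was, so their agreement shows nothing about stability. Start sites from gene records also repeated the main values. Sizes varied more. Thinning gave −0.25 at the Sox10 body (−0.39), 0.22 upstream of Sox9 (0.41), −0.35 downstream of Sox8 (−0.11) and −0.46 downstream of Sox9 (−0.15), with the main value in parentheses. A pseudocount of 2 gave 0.20 at the Sox9 body (0.37, and 0.49 with a pseudocount of 0.1), 0.22 upstream (0.41) and −0.07 downstream (−0.15). Upstream of Sox10 (−0.07) the change was −0.12 with trimmed-mean and −0.03 with median scaling, and at TSS ±500 bp that of Sox9 (0.64) was 1.08. With each library left out, the lone sample of a group was assumed to vary like the others. Changes ranged from −0.23 to 0.01 at the Sox8 body, −0.03 to 0.78 at the Sox9 body, −0.59 to −0.20 at the Sox10 body, −0.50 to −0.01 upstream of Sox8, 0.20 to 0.62 upstream of Sox9, −0.27 to 0.12 upstream of Sox10, −0.24 to 0.01 downstream of Sox8, −0.22 to −0.07 downstream of Sox9 and −0.64 to 0.07 downstream of Sox10. The sign turned without uninjured F at Sox8 (0.01 at the body and 0.01 downstream) and Sox10 (0.07 upstream and 0.07 downstream), without 1 d.p.i. F upstream of Sox10 (0.12) and without 1 d.p.i. M at the Sox9 body (−0.03). Of the members' levels, 44 of 45 moved by less than the SD of the libraries, the exception being Sox8 at TSS ±500 bp (24.9). Leaving out 1 of 4 libraries always moves a mean by less than that SD, so those values cannot show that levels are stable.

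Counts of changed genes varied, and the cause was not tested. At start sites (2) they were 0 with trimmed-mean scaling, 11 with median scaling, 1 with a pseudocount of 2, 0 with no filter, 0 with all 8 libraries, 1 after thinning, 1 with start sites from gene records, 0 at ±500 bp and 0 to 0 with each library left out. In gene bodies (0) they were 7 with trimmed-mean scaling, 4 with all 8 libraries and 0 to 3 with a library left out (3 without 1 d.p.i. M, 1 without 1 d.p.i. F). Upstream (4) they were 0 with trimmed-mean scaling, 7 with median scaling, 0 with all 8 libraries, 1 after thinning and 0 to 35 with a library left out. Downstream (1) they were 0 with trimmed-mean scaling, 6 with median scaling, 2 with a pseudocount of 0.1, 0 with all 8 libraries and 0 to 32 with a library left out. The values of 35 and 32 are those without uninjured F. Wherever a count was 0, limma gave 191 to 1570 genes at an unadjusted p under 0.05. Trimmed-mean scaling moved the median start site change from −0.07 to −0.12 and median scaling to 0.02.

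With a replicate block for M and F the counts were 1 at start sites, 293 in gene bodies, 0 upstream and 0 downstream, and no member was among them. The M minus F differences of the uninjured and 1 d.p.i. libraries correlated across genes, which are not independent replicates, at −0.0915 at start sites, −0.108 in bodies, −0.218 upstream and −0.221 downstream, negative in each.

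The limits are those of 2 libraries a group, start site values of Sox9 that rest on 7 to 23 fragments, controls whose fragments are mostly shared with SOX9 libraries, and windows that overlap other genes.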
